A study of Mus musculus with 21 samples.

Results

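Transcripts of 10 integrin subunits were followed in E14.5 mouse forebrain and kidney: the alpha subunits Itga1, Itga3, Itga4, Itga5, Itga6, Itga8 and Itgav and the beta subunits Itgb1, Itgb3 and Itgb8. They were taken by gene symbol from tables of 23827 rows, of which 27 are integrin subunit rows, and each of the 10 symbols had a single row. The series holds 21 libraries in 7 groups of 3. In the brain and kidney transcriptome and translatome groups, embryos of the genotype Sox2Cre+/-;Gt(ROSA)26Sor-mCherry-Rpl10a+/- carried the tagged ribosomal protein Rpl10a in the derivatives of the whole epiblast, and either total RNA (transcriptome) or RNA pulled down with the tagged ribosomes (translatome) was sequenced. The brain EC and kidney EC groups are ribosome-bound RNA of Cdh5CreERT2+/-;Gt(ROSA)26Sor-mCherry-Rpl10a+/- embryos, in which a tamoxifen-dependent Cre under the VE-cadherin promoter switches the tag on in endothelial cells (EC); the tamoxifen dose and timing are not given in the sources used here, and these embryos were picked by visible fluorescence. The Emx1-lineage group is ribosome-bound RNA of forebrain from Emx1Cre+/-;Gt(ROSA)26Sor-mCherry-Rpl10a+/- embryos, with the tag in progenitors of the dorsal telencephalon and the cells derived from them. All 21 samples thus share the mCherry-Rpl10a allele and the age, each sample held tissue of a single embryo or a pair of embryos, and a sample without Cre was not analysed here. Brain stands for the forebrain with part of the diencephalon. P-values measure the spread among the 3 samples of a group.

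Integrins are receptors on the cell surface made of an alpha and a beta chain, which join the extracellular matrix or a neighbouring cell to the actin cytoskeleton. The alpha chain largely sets the ligand, whereas the short cytoplasmic tail of most beta chains binds talin and kindlin, which switch the receptor on. Itgb1 pairs with Itga1 (collagen receptor), Itga3 and Itga6 (laminin receptors), Itga4 (receptor for VCAM-1 and fibronectin), Itga5 (the main fibronectin receptor) and Itga8 (receptor for nephronectin, known for its role in ureteric bud outgrowth in the kidney). Itgav pairs with several beta chains, among them Itgb3, which also forms the fibrinogen receptor of platelets with Itga2b, and Itgb8, which on neuroepithelial cells activates latent TGF-beta and is known to be needed for normal brain vessels.

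The libraries held 21760652 to 79231692 reads counted on genes (median 43190754). Reads of a member in a library ranged from 23 for Itgb3 in the Emx1-lineage upwards, so Itgb3 is the least precisely measured member there. The labels of the cell types were checked on marker genes. The summed RPKM (reads scaled to transcript length and library size, as the authors computed it) of 10 endothelial markers was 3115 to 3260 in brain EC against 158 to 184 in the brain translatome, and 2034 to 2362 in kidney EC against 355 to 382 in the kidney translatome. The pull-down was not free of other cells' RNA: the sum of 6 neural markers was 419 to 529 in brain EC against 2248 to 2262 in the brain translatome, and 7 kidney epithelial markers summed to 44.1 to 57.7 in kidney EC against 312 to 346. The 6 dorsal telencephalon markers summed to 1124 to 1201 in the Emx1-lineage against 543 to 563 in the brain translatome, and its endothelial sum was 14.3 to 16.3. Brain EC, kidney EC and Emx1-lineage libraries were each sequenced on a lane of their own, so that lane and group cannot be told apart in comparisons with them.

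The beta subunits differ in the tail through which talin acts, and their coding ends are shown because, of the 3 beta members, Itgb1 was the most raised in kidney over brain and Itgb8 the most lowered, as given below. Each line is the last 150 coding bases (50 codons, stop codon included) of the mouse transcript, with in-frame NPxY codons (asparagine, proline, any residue, tyrosine) in capitals, read from GENCODE vM21.
Itgb1: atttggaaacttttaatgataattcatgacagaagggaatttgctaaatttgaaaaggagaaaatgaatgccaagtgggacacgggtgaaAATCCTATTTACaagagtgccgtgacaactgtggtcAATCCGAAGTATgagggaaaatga
Itgb3: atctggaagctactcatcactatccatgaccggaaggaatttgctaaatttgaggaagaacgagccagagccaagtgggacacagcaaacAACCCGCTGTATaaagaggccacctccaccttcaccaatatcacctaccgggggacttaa
Itgb8: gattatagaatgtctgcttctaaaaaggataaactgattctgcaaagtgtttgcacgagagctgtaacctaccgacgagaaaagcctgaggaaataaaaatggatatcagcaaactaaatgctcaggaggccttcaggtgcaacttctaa
The Itgb1 end holds 2 NPxY motifs and the Itgb3 end holds 1, with 2 matches when the proline is left free. The Itgb8 end holds no match to either form. Itgb1 (NM_010578) lies on GRCm38 chromosome 8 from 128685654 to 128733200 on the plus strand, Itgb3 (NM_016780) on chromosome 11 from 104608000 to 104670476 on the plus strand, and Itgb8 (NM_177290) on chromosome 12 from 119158022 to 119238802 on the minus strand.

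Among the beta members Itgb1 had the highest RPKM in every group. It read 49.7, 53.1 and 50.1 in the 3 brain transcriptome samples, 38.7, 39.1 and 35.9 in the brain translatome, 147, 141 and 160 in brain EC and 28.2, 28.6 and 28.7 in the Emx1-lineage. In kidney it read 166, 155 and 164 in the transcriptome, 144, 136 and 139 in the translatome and 206, 201 and 191 in kidney EC. The order of the group means was thus kidney EC, kidney transcriptome, brain EC, kidney translatome, brain transcriptome, brain translatome and Emx1-lineage. Brain EC overlapped both of its neighbours in that order, and the other neighbours did not overlap.

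Itgb8 ran the other way. Its RPKM was 9.33, 7.07 and 7.55 in the brain transcriptome, 5.31, 5.84 and 5.88 in the brain translatome and 5.50, 5.38 and 5.54 in the Emx1-lineage. It was 2.06, 2.09 and 2.54 in brain EC. Kidney values were 1.65, 1.03 and 1.33 in the transcriptome, 1.19, 1.19 and 1.49 in the translatome and 0.444, 0.740 and 0.942 in kidney EC. Every brain sample was above every kidney sample, and brain translatome and Emx1-lineage overlapped. Itgb3 was low throughout, with group means from 0.130 ± 0.00431 RPKM (SD, n = 3) in the Emx1-lineage to 1.43 ± 0.254 (SD, n = 3) in the kidney transcriptome. Its Emx1-lineage samples were apart from those of all other groups, whereas each of the other neighbours in its order overlapped.

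**Figure D1:**
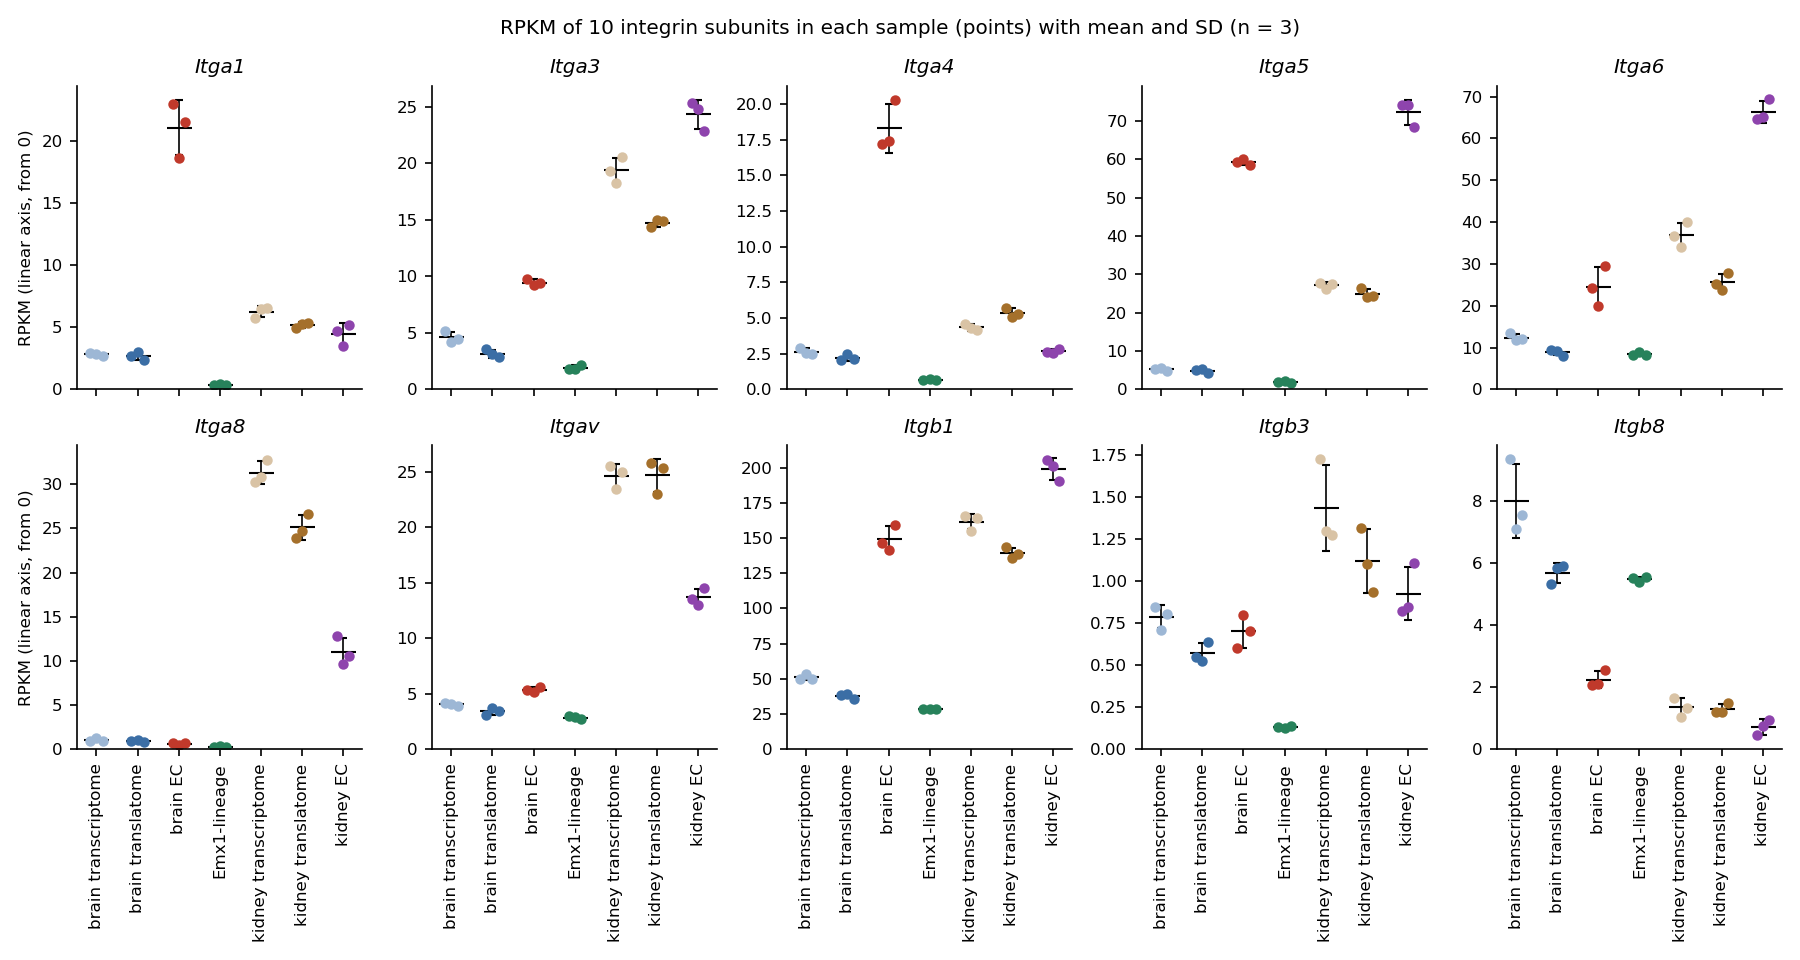
RPKM (linear axes, from 0) of each integrin subunit by group; points are the 3 samples, the dash and bars their mean and SD. Itga1 and Itga4 stand out in brain EC (means 21.1 and 18.3), Itga5 in both EC groups (59.2 and 72.2), Itga8 and Itgav in kidney, and Itgb8 in the brain groups other than EC.

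The kidney carried more transcript of most members than the forebrain. In the translatomes 9 members were higher in kidney and 1, Itgb8, was lower, and in the transcriptomes 8 were higher and Itgb8 again lower. Across all genes tested, 53.4% were called in the translatomes and 53.5% in the transcriptomes: 26.2% (translatome) and 26.3% (transcriptome) were called higher in kidney, and 27.2% lower in both. A gene was called at a Benjamini-Hochberg adjusted p below 0.001 in edgeR's quasi-likelihood test, fitted on the 6 samples compared. The median log2 fold change of the 10 members was 1.50 in the translatomes and 1.43 in the transcriptomes, beside 0.01 and 0.02 for all genes. In these organs of mixed cells, fewer cells of a type and less RNA per cell cannot be told apart.

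The largest difference was that of Itga8 (NM_001001309; chromosome 2, 12106632 to 12301922, minus strand). Its translatome RPKM was 24.0, 24.7 and 26.7 in kidney and 0.868, 1.01 and 0.752 in brain, with a log2 fold change of 4.64 ± 0.092 (SE, adjusted p = 4.08e-14). In the transcriptomes it read 30.3, 30.9 and 32.8 against 0.917, 1.23 and 0.843 (log2 fold change 4.78 ± 0.10, adjusted p = 1.32e-11). Its exons share 372 bases with exons of E030013I19Rik on the opposite strand, and the library kit does not keep the strand. The reads of that gene, at 1.09 to 3.85 RPKM in the kidney whole-organ samples and at most 0.0384 in the brain ones, cannot be separated from Itga8 over those bases. Npnt, which encodes nephronectin, the ligand of Itga8, was also higher in the kidney translatome, at 42.9 ± 7.19 RPKM against 4.34 ± 0.322 (SD, n = 3; log2 fold change 3.11).

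Itgav (NM_008402; chromosome 2, 83724397 to 83806916, plus strand) was 25.8, 23.0 and 25.3 RPKM in the kidney translatome and 3.08, 3.74 and 3.39 in the brain translatome, a log2 fold change of 2.66 ± 0.077 (SE). Itga5 (NM_010577; chromosome 15, 103344286 to 103366763, minus strand) read 26.4, 24.2 and 24.4 against 4.99, 5.46 and 4.36 (log2 fold change 2.14 ± 0.079). Both ranges were far apart between the organs. The laminin receptor chains followed, with Itga3 (NM_013565; chromosome 11, 95044474 to 95076801, minus strand) at a log2 fold change of 2.01 ± 0.083 and Itga6 (NM_008397; chromosome 2, 71745616 to 71858416, plus strand) at 1.32 ± 0.075. For Itgb1 it was 1.68 ± 0.059. Itga4 and Itga1 differed by less (1.07 ± 0.089 and 0.75 ± 0.10), and so did Itgb3 (0.77 ± 0.16, adjusted p = 0.00078).

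Itgb8 fell by 2.34 on the log2 scale from brain to kidney translatome (SE 0.12, adjusted p = 8.17e-10) and by 2.75 in the transcriptomes (SE 0.16, adjusted p = 5.31e-08). Itgb3 missed the threshold in the transcriptomes (0.69 ± 0.14, adjusted p = 0.00117). In the translatomes its call was lost at a stricter read filter (adjusted p = 0.00105), with the sequencing lane as a term (adjusted p = 0.00522), and without any single library except kidney translatome replicate 3, with adjusted p from 0.00123 without brain translatome replicate 3 to 0.0104 without brain translatome replicate 1. The transcriptome difference of Itga4 (0.54 ± 0.085) was likewise not called with the lane as a term (0.64, adjusted p = 0.00326).

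**Figure D2:**
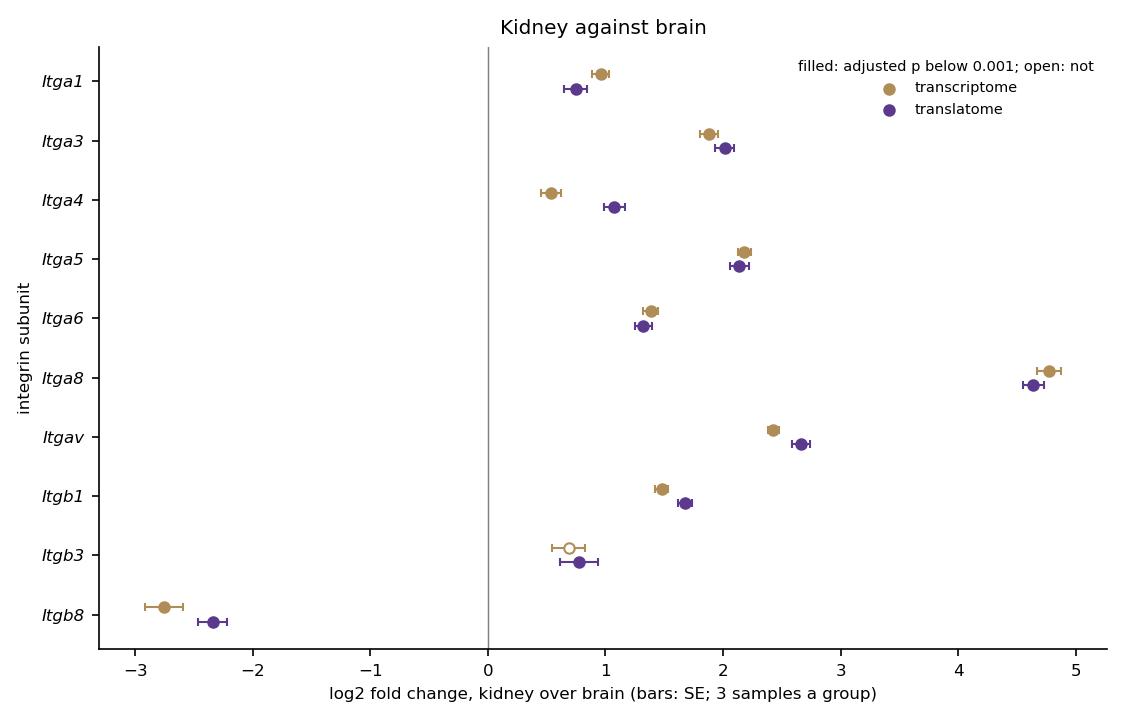
Log2 fold change of kidney over brain for each integrin subunit, in transcriptomes and translatomes; bars are standard errors and filled points passed the threshold. Itga8 is farthest to the right (4.78 and 4.64) and Itgb8 alone lies to the left of 0.

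In brain EC, 7 members were higher than in the brain translatome and 1, Itgb8, was lower, against 24.8% and 21.4% of all genes tested (46.2% in either direction). Itga5 changed most. Its RPKM was 59.3, 60.0 and 58.4 in brain EC and 4.99, 5.46 and 4.36 in the brain translatome, a log2 fold change of 3.87 ± 0.086 (SE, adjusted p = 7.29e-13), or 14.7-fold. The samples of brain EC lay within a narrow band, far above all others from brain.

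Itga4 (NM_010576; chromosome 2, 79255426 to 79333123, plus strand), which forms the receptor for VCAM-1 with Itgb1, read 17.2, 17.4 and 20.3 RPKM in brain EC and 2.03, 2.49 and 2.14 in the brain translatome (log2 fold change 3.34 ± 0.097, adjusted p = 6.06e-12). Its exons share 1124 bases with exons of Cerkl on the opposite strand, and Cerkl was at 0.153 to 0.263 RPKM in brain EC. Itga1 (NM_001033228; chromosome 13, 114953096 to 115101964, minus strand), a collagen receptor chain, read 23.0, 18.7 and 21.6 against 2.70, 3.01 and 2.34 (log2 fold change 3.26 ± 0.10, adjusted p = 1.31e-11). Itga1 and Itga4 thus rose by similar amounts, and in both the lowest brain EC sample was above every sample of the other 6 groups. Itga1 shares 685 exon bases with the annotated gene Gm49395 on the same strand, for which no separate row was matched.

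Smaller rises in brain EC were those of Itgb1 (log2 fold change 2.27 ± 0.078), Itga3 (1.86 ± 0.089), Itga6 (1.75 ± 0.12) and Itgav (0.94 ± 0.087). Itgav read 5.32, 5.10 and 5.59 RPKM in brain EC against 3.08, 3.74 and 3.39, so the groups were apart. Itga6 read 24.2, 19.9 and 29.5 RPKM in brain EC, and its lowest sample there was above every brain translatome sample. Itgb8 fell by 1.06 on the log2 scale (SE 0.11, adjusted p = 1.65e-06). The values of Itgb3 (0.59 ± 0.15, adjusted p = 0.00432) and Itga8 (-0.36 ± 0.18, adjusted p = 0.105) did not pass. Mural markers summed to 33.4 to 40.2 RPKM in brain EC against 55.8 to 66.3 in the brain translatome, macrophage markers to 7.78 to 9.23 against 15.5 to 17.8, and megakaryocyte and platelet markers to 9.40 to 11.6 against 16.4 to 20.3. Not all genes of these lists fell: of the 6 mural markers 4 were lower and Cspg4 was higher, of the 5 macrophage markers 2 were lower, and of the 5 megakaryocyte and platelet markers Pf4 was lower and Itga2b higher. The part of these cells in the member values was not tested.

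Since Itga1, Itga4 and Itga5 rose most in brain EC, the sequence before their start sites was read for the core GGAA of ETS factors, a family with known roles in endothelial cells. Each line gives the 250 bases before the RefSeq start (GRCm38.p6), 5′ to 3′ on the gene's strand, with GGAA and its reverse complement TTCC in capitals.
Itga1, chr13:115101965-115102214, minus strand: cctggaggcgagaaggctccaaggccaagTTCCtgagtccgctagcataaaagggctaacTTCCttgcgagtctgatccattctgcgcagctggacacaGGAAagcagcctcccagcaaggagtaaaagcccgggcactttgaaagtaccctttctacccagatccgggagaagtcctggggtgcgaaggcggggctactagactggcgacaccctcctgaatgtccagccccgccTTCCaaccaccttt
Itga4, chr2:79255176-79255425, plus strand: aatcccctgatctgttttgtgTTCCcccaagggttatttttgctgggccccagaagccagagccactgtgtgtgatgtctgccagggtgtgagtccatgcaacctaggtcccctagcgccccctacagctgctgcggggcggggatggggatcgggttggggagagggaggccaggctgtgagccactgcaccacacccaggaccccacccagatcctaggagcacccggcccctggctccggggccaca
Itga5, chr15:103366792-103367041, minus strand: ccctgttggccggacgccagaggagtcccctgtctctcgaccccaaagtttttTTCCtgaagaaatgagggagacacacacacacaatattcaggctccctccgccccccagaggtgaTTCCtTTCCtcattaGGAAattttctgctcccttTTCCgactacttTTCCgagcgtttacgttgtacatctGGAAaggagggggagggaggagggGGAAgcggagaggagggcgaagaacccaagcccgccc
The Itga5 window held 8 matches, and 1.45% of 32851 windows of the same length before annotated starts held at least as many. The Itga1 window held 4 (33.4% of windows held at least as many) and the Itga4 window 1 (93.4%), so the 3 windows differed widely in this number. The median window held 3. A match is a run of letters and not a bound site. Of the 10 members, 8 had an entry in the table of windows. Itga3, which rose less in brain EC, held 7 in its first window (3.82% of windows held at least as many) and 3 in its second (54.7%). Itgb1 and Itgav held 4 each (33.4%), Itgb8 3 (54.7%) and Itga8 1 (93.4%). A link between this number and the EC values was not tested.

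In kidney EC the members split. Against the kidney translatome, 4 were higher (Itga5, Itga6, Itga3 and Itgb1) and 3 were lower (Itga8, Itga4 and Itgav), beside 16.7% and 15% of all genes tested (31.7% in either direction). Itga5 read 74.0, 74.1 and 68.5 RPKM in kidney EC and 26.4, 24.2 and 24.4 in the kidney translatome (log2 fold change 1.88 ± 0.064, SE). Itga6 read 64.7, 65.0 and 69.5 against 25.3, 23.8 and 27.8 (1.73 ± 0.074). For these fibronectin and laminin receptor chains kidney EC held the highest RPKM of the 7 groups, and the same held for Itga3 at 25.4, 24.8 and 22.9 RPKM (log2 fold change over the translatome 1.08 ± 0.057).

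Itga8 read 12.8, 9.68 and 10.6 RPKM in kidney EC, below the 3 translatome samples and above every brain sample, and it fell by 0.83 on the log2 scale (SE 0.095, adjusted p = 2.22e-05). Itga4 read 2.61, 2.58 and 2.86 RPKM in kidney EC against 5.72, 5.05 and 5.32 (log2 fold change -0.64 ± 0.082, adjusted p = 5.20e-05). Itgav read 13.5, 13.0 and 14.5 against 25.8, 23.0 and 25.3 (-0.49 ± 0.070, adjusted p = 0.000121), and its call was lost without kidney translatome replicate 3 (-0.47, adjusted p = 0.00160). RPKM values are not rescaled for library composition as the test is, so ratios of RPKM and fold changes differ. Kidney stroma markers, summed over 3 genes, were at 29.4 to 37.5 RPKM in kidney EC against 134 to 169, and mural markers at 108 to 121 against 152 to 159, where 4 of the 6 were lower and Abcc9 and Cspg4 higher (Cspg4 73.9 ± 5.22 against 23.8 ± 3.87, SD, n = 3). Of the 5 megakaryocyte and platelet markers Pf4 was higher in kidney EC, at 26.4 ± 4.66 RPKM against 11.2 ± 0.545 (SD, n = 3), and made up most of their sum of 23.0 to 32.4 against 14.3 to 15.6. The other 4 were not called, and the list's median log2 fold change was -0.65. The part of these cells in the member values was not tested.

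Itga1 did not pass in kidney EC. It read 4.71, 3.50 and 5.22 RPKM against 4.92, 5.27 and 5.34 in the kidney translatome, with a log2 fold change of 0.15 ± 0.13 (adjusted p = 0.361) that ranged from -0.22 with total counts as the scale to 0.31 over the alternatives. Itgb3 (0.08 ± 0.17) and Itgb8 (-0.51 ± 0.26) did not pass either.

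**Figure D3:**
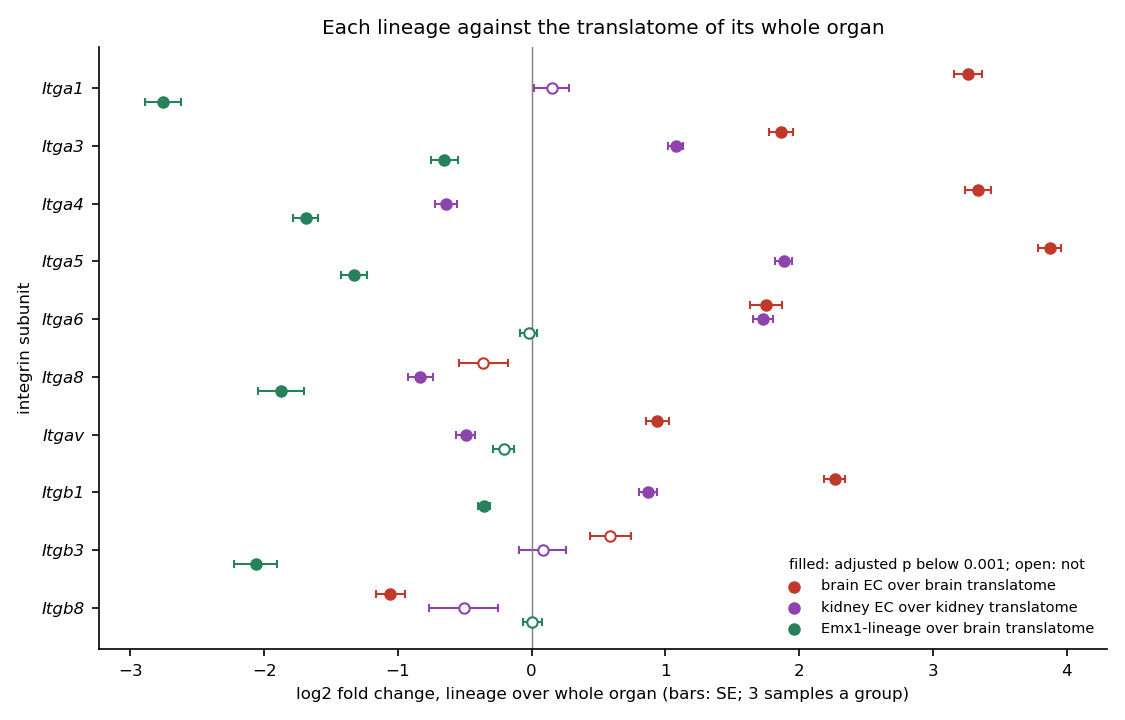
Log2 fold change of each lineage over the translatome of its whole organ; bars are standard errors and filled points passed the threshold. Itga1 and Itga4 are at 3.26 and 3.34 for brain EC but at 0.15 and -0.64 for kidney EC, and every filled Emx1-lineage point lies to the left of 0.

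Whether enrichment in EC differed between the organs was tested as an interaction over 12 samples. For 6 members the EC over translatome log2 fold change was lower in kidney than in brain, beside 16.5% of all genes tested, and the other 4 were not called; 8.6% of all genes were higher and 25.1% were called in either direction. The difference was -4.01 ± 0.13 (SE) for Itga4, -3.14 ± 0.18 for Itga1, -2.02 ± 0.10 for Itga5, -1.46 ± 0.11 for Itgav, -1.42 ± 0.098 for Itgb1 and -0.81 ± 0.10 for Itga3. The median of all genes in this contrast was -0.15, and that of the 10 members was -1.12. Of the 10 endothelial markers 10 were called lower in kidney, with a median of -1.54. For Itga6 the difference was -0.05 ± 0.15 (adjusted p = 0.891), within its error of 0. The whole-organ levels entering these values differ between brain and kidney, as given above for Itga5 and Itgav.

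Compared directly, brain EC held more Itga4 (log2 fold change over kidney EC 2.81 ± 0.091), Itga1 (2.27 ± 0.14) and Itgb8 (1.70 ± 0.23) and less Itga8 (-4.26 ± 0.17), Itga6 (-1.39 ± 0.12), Itga3 (-1.32 ± 0.065) and Itgav (-1.32 ± 0.075). These were 3 members called higher and 4 called lower, beside 20.1% and 16.9% of all genes (37% in either direction). Itga1 read 23.0, 18.7 and 21.6 RPKM in brain EC and 4.71, 3.50 and 5.22 in kidney EC. Itga8, at 0.623, 0.403 and 0.643 RPKM in brain EC, was under every kidney EC sample. Markers of other cells also differed in this contrast. Of 6 neural markers 6 were higher in brain EC, with a median log2 fold change of 6.15. Of 7 kidney epithelial markers 5 were lower and 1 higher, with a median of -1.77. The part of other cells' RNA in these member values was not tested. The chains with the highest RPKM differed by less: Itga5 differed by -0.24 ± 0.064 (adjusted p = 0.00755) and Itgb1 by -0.37 ± 0.076 (adjusted p = 0.00146), neither called, although DESeq2 called both (adjusted p = 0.000255 and 3.20e-06).

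In the Emx1-lineage, 7 members were lower than in the brain translatome and 0 higher, by edgeR and by DESeq2 alike. By edgeR 12.8% of all genes tested were lower and 9.2% higher (22.1% in either direction). At an unadjusted p below 0.05, 8 members were lower and 0 higher, and the share of all genes passing that threshold was not counted. The brain translatome samples are the same ones that brain EC was compared with. Itga1 fell the most among them, from 2.70, 3.01 and 2.34 RPKM in the brain translatome to 0.366, 0.479 and 0.325 (log2 fold change -2.76 ± 0.13, adjusted p = 4.75e-10). Itgb3 was at 0.131, 0.125 and 0.134 RPKM against 0.549, 0.521 and 0.638 (-2.06 ± 0.16). The other called members were Itga8 (-1.87 ± 0.18), Itga4 (-1.69 ± 0.092), Itga5 (-1.33 ± 0.096), Itga3 (-0.65 ± 0.10) and Itgb1 (-0.36 ± 0.044). The call of Itga3 was lost without brain translatome replicate 1 (-0.56, adjusted p = 0.00143).

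A group of 3 members was not called against the brain translatome. Itga6 read 8.29, 8.97 and 8.16 RPKM in the Emx1-lineage against 9.41, 9.20 and 8.11 (log2 fold change -0.02 ± 0.065), and its ranges overlapped. Itgb8 read 5.50, 5.38 and 5.54 against 5.31, 5.84 and 5.88 (0.01 ± 0.070). Itgav read 2.93, 2.90 and 2.66 against 3.08, 3.74 and 3.39, with -0.21 ± 0.078 (adjusted p = 0.0418), and its ranges were apart. Endothelial markers were at 14.3 to 16.3 RPKM in the Emx1-lineage against 158 to 184 in the brain translatome, mural markers at 15.5 to 17.6 against 55.8 to 66.3, macrophage markers at 1.27 to 1.61 against 15.5 to 17.8, and megakaryocyte and platelet markers at 1.45 to 2.02 against 16.4 to 20.3. These lists moved with the called members, and their part in those values was not tested.

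The study also used the transcriptome as the reference for each lineage. It concluded that abundant populations such as the Emx1-lineage call for the translatome instead. The member calls in brain EC and kidney EC were close to those against the translatome. In the Emx1-lineage, Itga6 and Itgav were called against the transcriptome only. Brain EC against the brain transcriptome gave the 7 higher and 1 lower members named above, with folds of 3.83 ± 0.074 for Itga5, 3.24 ± 0.087 for Itga1 and 3.13 ± 0.090 for Itga4 on the log2 scale, beside 26.8% and 24.3% of all genes (51.1% in either direction). In kidney EC, 4 were higher and 2 lower (22.7% and 18.4% of all genes, 41.1% in either direction), since Itga4 at -0.27 ± 0.075 missed the threshold (adjusted p = 0.00942). The Itgb1 value there (0.73 ± 0.061) fell to 0.29 with total counts as the scale and was then not called (adjusted p = 0.00191). The Emx1-lineage against the brain transcriptome gave 9 lower members and left Itgb8 uncalled, beside 23.8% of all genes lower, 25.4% higher and 49.3% in either direction. Itga6 (-0.39 ± 0.062) and Itgav (-0.35 ± 0.066) were then called lower, Itgav not without Emx1-lineage replicate 3 (-0.31, adjusted p = 0.00255). Itgb8 was at -0.38 ± 0.089 (adjusted p = 0.00135). Against the translatome these 3 were at -0.02, -0.21 and 0.01.

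Within an organ, the members' log2 fold changes between translatome and transcriptome stayed between -0.52 and 0.30. Markers of cell types moved in this contrast too. Of 10 endothelial markers 4 were higher in the brain translatome and 5 in that of kidney, and 0 were lower in either. Of 4 red cell markers 4 were lower in brain and 3 in kidney. The part of cell types in the member values was not tested. By edgeR 0 members were higher in the brain translatome and 3 were lower, beside 18.6% and 18.5% of all genes tested (37.1% in either direction). DESeq2 called 0 higher and 4 lower, Itgb8 being the fourth, beside 3828 genes higher and 4006 lower of 19446. At an unadjusted p below 0.05, 0 members were higher and 7 lower, and the share of all genes passing that threshold was not counted. The 3 were Itga3 (log2 fold change -0.51 ± 0.098, adjusted p = 0.000441), Itga6 (-0.45 ± 0.074) and Itgb1 (-0.40 ± 0.051). Itgb1 read 38.7, 39.1 and 35.9 RPKM in the brain translatome and 49.7, 53.1 and 50.1 in the transcriptome, so the groups were apart. The Itga3 call was lost without brain transcriptome replicate 1 (adjusted p = 0.00187), brain translatome replicate 2 (0.00227) or replicate 3 (0.00311), and with the stricter read filter (0.00114). As translatome and transcriptome of a number came from the same tissue sample, a fit with the tissue sample as a block was also made, in which Itgb8 (-0.46, adjusted p = 2.12e-05) and Itgb3 (-0.44, adjusted p = 0.000864) were called lower too, making 5, beside 45.9% of all genes called in that fit. Itgb8 was also called with RLE factors and with total counts as the scale (adjusted p = 0.000905 and 0.000759).

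In kidney the translatome was again lower for 3 members, Itga3 (-0.39 ± 0.048), Itga6 (-0.52 ± 0.068) and Itga8 (-0.32 ± 0.049), and higher for 0 (15.8% and 14.9% of all genes, 30.7% in either direction). At an unadjusted p below 0.05, for which the share of all genes was not counted, 6 members were lower and 1 higher. DESeq2 called 4 lower and 1 higher. Itga6 read 25.3, 23.8 and 27.8 RPKM in the kidney translatome and 36.7, 34.1 and 40.0 in the transcriptome. With the block, Itga1 (-0.27), Itgb1 (-0.21) and Itgb3 (-0.35) were called lower as well and Itga4 higher (0.30, adjusted p = 3.73e-09), making 7, beside 49.1% of all genes called in that fit. Itga4 was the only member called higher in that fit, at 5.72, 5.05 and 5.32 RPKM in the translatome against 4.62, 4.33 and 4.15. With the sequencing lane as a term none of the 10 was called (5 passed an unadjusted p below 0.05, and DESeq2 without that term called 5), Itga3 reaching an adjusted p of 0.0101, Itga6 of 0.00252 and Itga8 of 0.157. Calls over all genes fell too: 2206 were higher and 2024 lower of 20108 with the lane term, against 2880 and 3049 of 19336 without it. DESeq2 without the lane term called 3509 genes higher and 3512 lower of 19336. The Itga8 call was also lost in a fit of all 21 samples (adjusted p = 0.0473) and without kidney transcriptome replicate 3 (0.00141), kidney translatome replicate 1 (0.00102) or replicate 2 (0.00195).

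The difference between organs in the translatome over transcriptome fold change was called for no member by edgeR without the block. At an unadjusted p below 0.05, 3 members passed, all higher in kidney, and all genes were not counted at that threshold. Of all genes 6.47% were called, 4.12% higher and 2.35% lower. The nearest was Itga4, whose log2 difference of 0.54 ± 0.13 had an adjusted p of 0.00536. With the block, which called 17.1% of all genes, it was 1.73e-05 and in DESeq2, which called 1 member, 0.000248. For Itga6, lower in the translatome of both organs, the difference was -0.06 ± 0.10.

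**Figure D4:**
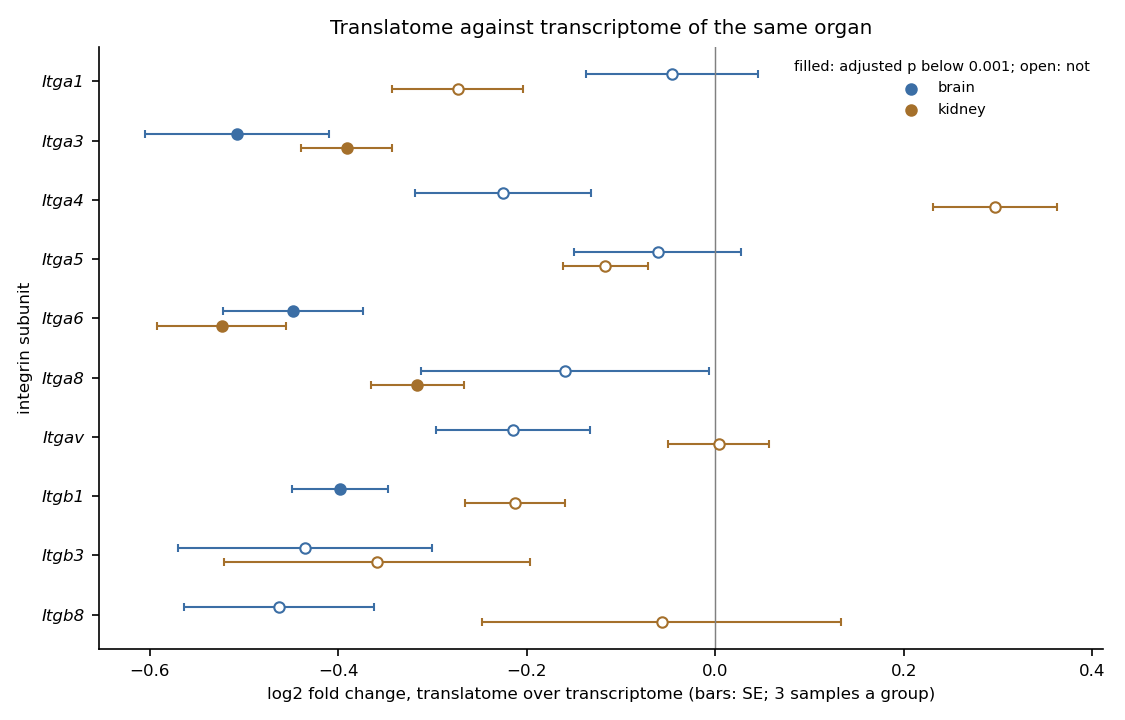
Log2 fold change of translatome over transcriptome in brain and kidney for each integrin subunit; bars are standard errors and filled points passed the threshold without a block. Values range from -0.52 (Itga6, kidney) to 0.30 (Itga4, kidney), a far narrower span than between lineages.

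The make-up of the alpha chains is given as shares of the summed RPKM of the 18 alpha rows of the tables. In brain EC Itga5 held 36.1% ± 2.46, Itga6 14.8% ± 2.12, Itga1 12.8% ± 0.965 and Itga4 11.1% ± 0.691 (SD, n = 3). In kidney EC Itga5 (30.2% ± 1.74) and Itga6 (27.7% ± 0.836) led, while Itga1 and Itga4 held 1.87% ± 0.341 and 1.12% ± 0.0509. The fibronectin receptor chain thus had the largest share in both EC groups, and Itga6 the second largest, while Itga1 and Itga4 followed in brain EC only among the EC groups. Itga6 held 46.4% ± 0.771 of alpha RPKM in the Emx1-lineage and Itgav 15.5% ± 0.688. In the kidney translatome the shares were spread over Itga6 (14.9% ± 0.820), Itga8 (14.6% ± 0.806), Itga5 (14.5% ± 0.604) and Itgav (14.3% ± 0.449), and the largest, 23.0% ± 0.817, was that of Itga9, a chain outside the 10. The summed alpha RPKM was 17.8 to 19.0 in the Emx1-lineage, 29.7 to 34.7 in the brain translatome, 155 to 173 in brain EC and 235 to 243 in kidney EC. Of the beta RPKM, Itgb1 held between 69.2% (brain translatome) and 93.9% (brain EC) as group means, and Itgb8 14.4% in the Emx1-lineage against 0.33% in kidney EC.

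**Figure D5:**
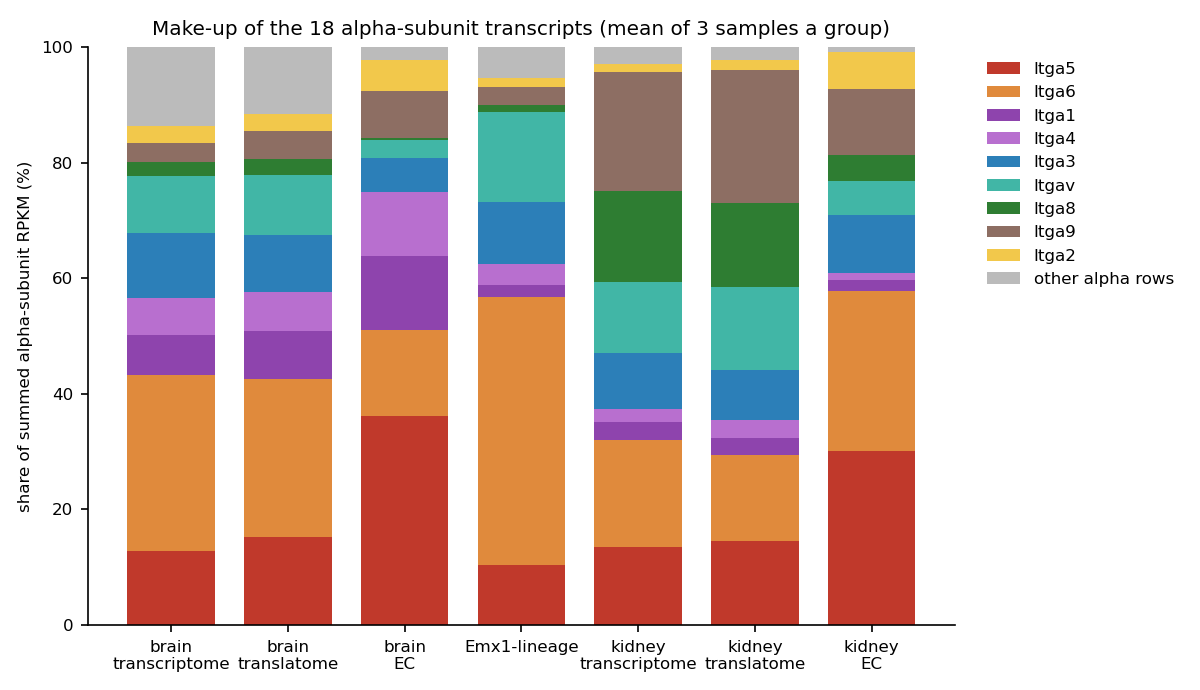
Share (%) of each chain in the summed RPKM of the 18 alpha-subunit rows, as the mean of 3 samples a group. Itga5 takes 36.1% in brain EC and 30.2% in kidney EC, Itga6 takes 46.4% in the Emx1-lineage, and Itga8, Itgav and Itga9 are broad in the kidney whole-organ groups.

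The other 17 integrin subunits were counted as a list. In brain EC 6 of them were higher and 1 lower than in the brain translatome, beside 24.8% and 21.4% of all genes. The list was led by Itga2 (log2 fold change 3.52), Itga9 (3.35) and Itgb4 (2.74). Its median was 1.22 beside -0.01 for all genes. With total counts as the scale 4 were higher and 2 lower, but the median of all genes then moved to -0.30. Relative to the median of all genes, the list's median was 1.22 with either scale. In kidney EC 1 was higher, the collagen receptor chain Itga2 (2.67), and 2 lower, Itgb6 (-1.31) and Itgb5 (-1.07), beside 16.7% and 15% of all genes. Itga2 read 7.99 to 9.36 RPKM in brain EC and 13.8 to 17.5 in kidney EC, so unlike Itga1 this collagen receptor chain passed in EC of both organs. Itga9 was 12.6 to 14.5 RPKM in brain EC against 1.49 to 1.71 in the brain translatome. In kidney it read 25.9 to 29.3 in EC against 38.0 to 41.8 in the translatome, a difference that was not called. The test, unlike RPKM, rescales for library composition. In the Emx1-lineage 9 of the 16 tested were lower and the other 7 not called, beside 12.8% of all genes lower and 9.2% higher. Those 9 were led by Itga11 (-3.81) and the leukocyte chains Itgb2 (-3.16) and Itgam (-2.94). In kidney against brain translatome 6 were higher and 1 lower, beside 26.2% and 27.2% of all genes. The epithelial chain Itgb6 was at 1.57 to 2.74 RPKM in the kidney translatome and at most 0.0143 in the brain translatome.

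The adhesion machinery list holds 25 genes, which link beta tails to actin or signal from them. Of these, 20 were higher in brain EC than in the brain translatome and the other 5 were not called. Among all genes 24.8% were higher and 21.4% lower. The largest changes were those of Parvb (log2 fold change 3.89), Lims2 (3.06), both parts of the complex around integrin-linked kinase, and Tln1 (2.78), which encodes talin. The list's median was 1.89. In kidney EC 13 were higher and 1, Src, lower, beside 16.7% and 15% of all genes, with Parvb at 2.43, Lims2 at 2.12 and Actn4 at 1.88. With total counts as the scale, 10 were higher and 5 lower there, but the median of all genes then moved from -0.04 to -0.41. The shares of all genes just given are those of the main scale. Relative to the median of all genes, the list's median was 0.59 with either scale. Tln1 was 88.9 to 93.7 RPKM in kidney EC and 88.9 to 94.8 in the kidney translatome, whereas in brain it was 58.0 to 64.4 in EC and 9.97 to 11.5 in the translatome. For 16 of the 25 genes the EC enrichment was lower in kidney than in brain, and for 1 higher, beside 16.5% and 8.6% of all genes. The list's median difference was -0.98. That of the 10 endothelial markers, of which 10 were called lower, was -1.54. In the Emx1-lineage 9 were lower and 2 higher, beside 12.8% and 9.2% of all genes. Kidney exceeded brain for 16 genes in the translatomes and fell below it for 2, Src and Bcar1, beside 26.2% and 27.2% of all genes.

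Of 20 integrin ligands, 17 were higher and 2 lower in brain EC than in the brain translatome, beside 24.8% and 21.4% of all genes. They were led by Lama4 (log2 fold change 4.11), Lama5 (4.00) and Lama3 (3.83), laminin chains of basement membranes. Fn1, the ligand of Itga5, was at 99.4 to 140 RPKM in brain EC against 16.8 to 20.3. Tgfb1, whose latent form integrins with Itgav bind, was at 77.5 to 89.6 against 6.51 to 8.02. Vcam1, the ligand of Itga4, was among those that fell, at 6.48 to 6.75 RPKM in brain EC against 10.6 to 10.7 in the brain translatome. In kidney EC 8 ligands were higher and 5 lower, beside 16.7% and 15% of all genes, led by Lama5 (2.78), Tgfb1 (2.70) and Lama3 (2.64). Lama5 reached 532 to 578 RPKM there. Vtn, which encodes vitronectin, an Itgav ligand, was 29.3 to 37.3 RPKM in brain EC and 0.0418 to 0.0525 in kidney EC, the opposite order of Itgav itself. In the Emx1-lineage 12 ligands were lower and 2, Lama5 and Tnc, higher, beside 12.8% and 9.2% of all genes. In kidney against brain translatome 17 were higher and 3 lower, Vtn, Spp1 and Vcam1, beside 26.2% and 27.2% of all genes.

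Finally, patterns over the 21 samples were compared by Pearson's r of log2(RPKM + 1), as a description, since libraries of a group share their source. The nearest genes depended in part on the pseudocount: with 0.1 in place of 1, 15 of the 20 named here stayed within the first 5, whereas Mylk was at rank 66, Fam38a at 14, Plekhh2 at 13, Frem1 at 10 and Col5a2 at 7. Among the members the closest pairs were Itga8 with Itgav (r = 0.981) and Itga1 with Itga4 (r = 0.970), and Itgb1 lay closest to Itga3 (0.968) and Itga5 (0.967). Itgb8 had a negative r with each of the other 9, from -0.913 with Itga3 to -0.411 with Itga4. Among 13233 non-member genes with a mean of at least 1 RPKM, those nearest to Itga5 were Tmbim1 (0.996) and Epha2 (0.994), to Itga8 Capn6 (0.997) and Krt18 (0.994), and to Itgav Frem1 (0.995), a ligand gene of the list above, and Plekhh2 (0.995). For Itga1 they were Lipa (0.990) and Plod1 (0.983), for Itga4 Hapln3 (0.979) and Ccdc141 (0.979), for Itga3 Rtkn (0.994) and Mylk (0.988), and for Itga6 Lrrk2 (0.991) and Arhgef17 (0.986). Itgb1 was nearest to Fam38a (0.995) and Cpd (0.995), and Itgb8 to the neural transcription factor gene Sox11 (0.990) and Nuak2 (0.990). Itgb3 had the loosest neighbours, the collagen genes Col1a2 (0.948) and Col5a2 (0.945).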

How the data were processed

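Poly(A) RNA of 21 E14.5 samples was sequenced without strand. Per the study's methods, the authors aligned reads with RUM v. 2.04 to the mouse genome (GRCm38) and counted them on RefSeq genes. The deposited tables hold read counts, which are whole numbers, and RPKM, which the authors scaled to transcript length and library size. The 392 rows that repeated a symbol and accession stayed in the fits and in the shares of all genes. For a listed gene the row with the most reads was to be used, but no listed symbol had several rows. Depth was 21760652 to 79231692 counted reads. Counting error is smallest in the deepest libraries.

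Counts were tested with edgeR 4.0.16 (quasi-likelihood, TMM factors, at least 1 count over the samples of a fit, R 4.3.3), with 6 samples a pairwise fit and 12 an interaction, and called at a Benjamini-Hochberg adjusted p below 0.001 over all genes. SE is the log2 fold change over the square root of F. The test was tried on simulated data. Alternatives were DESeq2 1.42.0, RLE factors, total counts, at least 10 counts in 3 samples, all 21 samples in one fit, each sample left out, a replicate block, and sequencing lane as a term. The 10 members were all described; other genes named are the 3 largest called changes of a list in a comparison and the 2 non-member genes nearest to each member by correlation (mean of at least 1 RPKM). Itga2 and Itga9 levels, Tln1 levels, Src, Bcar1, Fn1, Tgfb1, Vcam1, Npnt, Spp1, Tnc, Cspg4, Abcc9, Itga2b and Pf4 were chosen after their values were seen. Members and lists were chosen with earlier results of these data known.

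Translatome and transcriptome of a number come from the same tissue sample. Deviations from group means over 13242 genes correlated at 0.470 to 0.576 for the same number in brain and 0.497 to 0.581 in kidney, and at -0.436 to -0.0208 and -0.356 to -0.146 for other numbers. Brain EC and kidney EC of a number correlated at 0.130 to 0.251, and the labels do not say whether they share embryos. The main fits held no pairing term, and the block by number was an alternative only.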

Additional observations from a re-analysis of the deposited data

Results flagged for a closer look

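For 6 members the enrichment in EC over the whole-organ translatome differed between the organs, by the interaction test of edgeR over 12 samples. Of all genes tested 25.1% were called in that test, 16.5% lower in kidney and 8.6% higher. The difference, kidney minus brain on the log2 scale, was -4.01 for Itga4 (adjusted p = 9.42e-13), as its values against the translatome were 3.34 for brain EC and -0.64 for kidney EC. For Itga1 it was -3.14 (adjusted p = 5.94e-10), from 3.26 for brain EC and 0.15 for kidney EC. For Itga5 it was -2.02, for Itgav -1.46, for Itgb1 -1.42 and for Itga3 -0.81. Itgav and Itga4 were called in opposite directions in the organs, higher in brain EC and lower in kidney EC. Endothelial markers, as a list of 10, had a median difference of -1.54 in the same contrast, and 10 of the 10 were called lower in kidney. Their part in the member values was not tested.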

How the results depend on the processing

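Of 1730 member results under alternatives, 1673 kept their side of the threshold, 24 lost a call and 33 gained one. No called value changed sign, and 34 uncalled ones did. The replicate block called 5 members in the brain translatome against transcriptome comparison and 7 in kidney (3 each without it), 9496 genes in kidney (5929 without it), and 1 member and 3445 genes for the organ difference of that contrast (1301 genes without it). It changed no member call between brain EC and kidney EC, whose embryos the labels do not link. In the other comparisons samples share only a number; there the block gained Itgb3 (kidney over brain transcriptome) and Itgb8 (Emx1-lineage against transcriptome) and lost Itgb3 (kidney over brain translatome). DESeq2 called 5 members in kidney translatome against transcriptome, and 1 member and 2709 genes for the organ difference. With lane as a term these were 0 members and 407 genes, and kidney against brain transcriptome gave 6673 genes (10616 without it). Leaving out a library gave 850 genes (without kidney transcriptome replicate 2) to 1248 genes for that organ difference. Total counts as the scale moved the median log2 fold change of all genes to -0.30 for brain EC and -0.41 for kidney EC against the translatome. The share of calls that were higher then fell from 53.7% to 36.1% for brain EC, from 52.7% to 21.7% for kidney EC and from 41.7% to 29.9% for the Emx1-lineage against the translatome, and from 52.4% to 35.4%, 55.3% to 24.7% and 51.6% to 39.6% against the transcriptome. For the organ differences it moved from 63.7% to 79.9% with the lane term (translatome against transcriptome) and from 34.3% to 44.5% with DESeq2 (EC). The cause of these changes was not tested. Depth limits Itgb3 most in the Emx1-lineage, where a library held as few as 23 of its reads.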
